A study of Drosophila melanogaster with 6 samples.

Results

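A set of 10 genes for glycolytic enzymes were followed between 40 and 21 h APF (hours after puparium formation) in whole eyes dissected from Canton S pupae, a wild-type strain of *Drosophila melanogaster*. The members were the rows of the deposited table whose gene name was Hex-A, Pgi, Pfk, Ald, Tpi, Gapdh1, Gapdh2, Pgk, Eno or PyK, which gave 10 genes of 17649. The series held 6 RNA sequencing libraries, 3 at 40 h APF and 3 at 21 h APF, and each was made from a pool of dissected eyes that carried no transgene, mutation or treatment by the labels. The table lists 1 value per gene and stage, which the authors pooled over the 3 replicates, in FPKM, the number of sequenced fragments scaled to transcript length and to sequencing depth. The replicates are not told apart, so no value below has an SD, an interval or a test, and every comparison describes a pair of pooled values.

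Glycolysis converts glucose to pyruvate in the cytosol. In its preparatory phase ATP is spent to phosphorylate the sugar and split it into triose phosphates, and in its payoff phase ATP and NADH are gained. In the fly nervous system glia are known to break down sugar and pass products such as lactate and alanine to neurons, and photoreceptors are cells with a high energy demand. The eye at both stages is immature, with photoreceptors, cone cells, pigment cells, bristle cells and glia still developing.

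Aldolase was the member that differed most between the stages. Ald had 307 FPKM at 40 h APF against 145 FPKM at 21 h APF, 2.11-fold higher at 40 h, where this and every fold below for a single gene was computed after 0.1 FPKM was added to both values. Pyruvate kinase and one of a pair of GAPDH genes were lower at 40 h APF, PyK by 1.66-fold and Gapdh1 by 1.57-fold. The 7 remaining members differed by less than 1.5-fold between the stages. The pathway had no common direction, since 5 members had the higher value at 40 h and 5 had it at 21 h APF. The exact split is not firm, since Pgi, Gapdh2 and Pfk were nearly level. At 40 h against 21 h APF they had 31.4 against 31.5, 121 against 117 and 10.2 against 9.51 FPKM. All 10 members passed a minimum mean of 1 FPKM, which 9442 genes of the table reached.

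**Figure D1:**
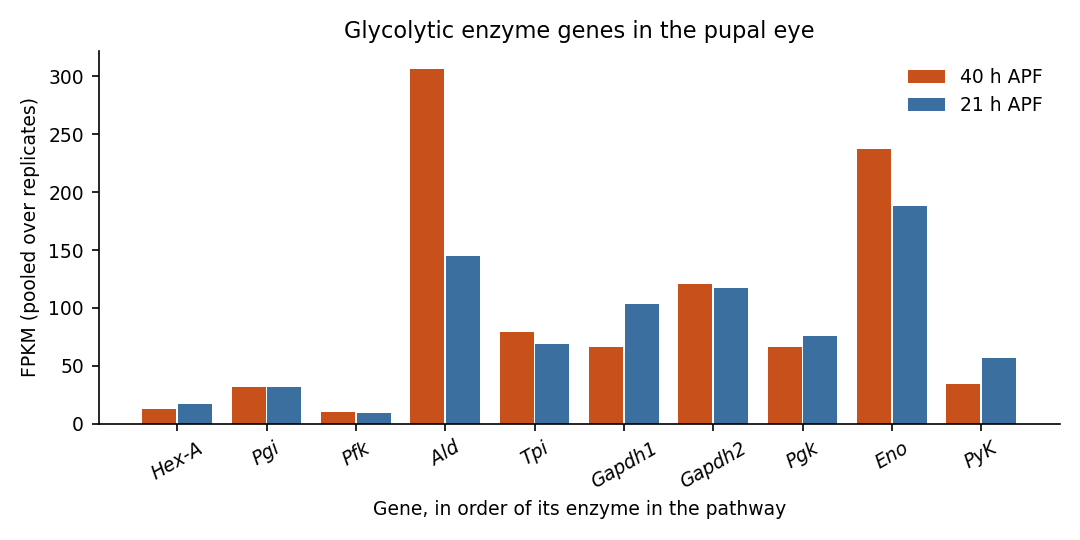
FPKM of the 10 glycolytic enzyme genes (y axis) at 40 h APF (orange, left bar) and 21 h APF (blue, right bar), in the order of their enzymes in the pathway; each bar is 1 deposited value pooled over replicates, so no error bar can be drawn. Ald stands at 307 FPKM at 40 h against 145 FPKM at 21 h, while Pgi has nearly equal bars of 31.4 and 31.5 FPKM.

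A gene was counted as higher or lower at 40 h APF when its ratio was at least 1.5-fold. By this count 1 member was higher, where 21.8% of all 9442 genes were higher, and 2 members were lower, where 17.5% of all genes were lower. The shares of 10% and 20% among the members are not read as departures from these backgrounds. On a log2 scale, after 0.1 FPKM was added to each value, the ratio of 40 h over 21 h had a median of 0.019 over the members and -0.014 over all 9442 genes. The members ranged from -0.73 to 1.08 on this scale, and the middle 90% of all genes from -1.71 to 2.57. Among genes with a mean of at least 10 FPKM, which all members but Pfk reached, 19.1% were higher and 12.8% lower. At a 2-fold threshold only Ald was counted among the members, beside 13.9% of all genes higher and 9.62% lower.

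**Figure D2:**
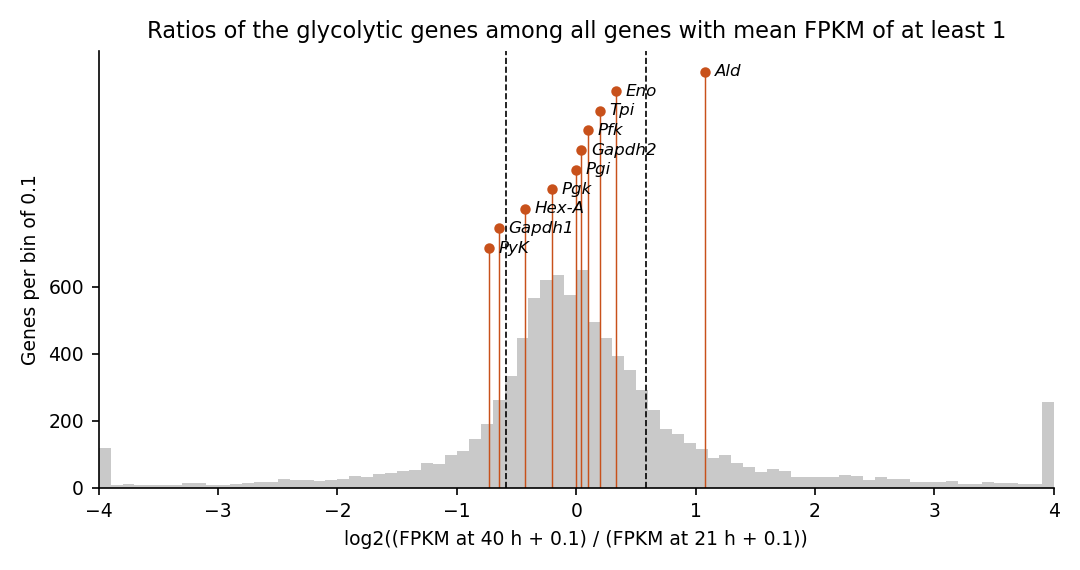
Histogram of the log2 ratio of 40 h over 21 h APF, with 0.1 FPKM added to both (x axis), over 9442 genes with a mean of at least 1 FPKM (grey, genes per bin of 0.1; genes beyond -4 or 4 stand in the end bins), with each glycolytic gene as an orange point at its own ratio and at an arbitrary height. Dashed lines mark 1.5-fold; Ald lies beyond the right line at 1.08, PyK and Gapdh1 lie beyond the left line at -0.73 and -0.65, and 7 members lie between the lines.

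Hexokinase phosphorylates glucose and so traps it in the cell. Hex-A (FBgn0001186, on chromosome X from 9585675 to 9589813 of BDGP6, plus strand), the hexokinase gene of most fly tissues, had 12.7 FPKM at 40 h APF against 17.1 FPKM at 21 h APF. It was 1.34-fold lower at 40 h, the change closest to the 1.5-fold line among those that did not reach it. Pgi (FBgn0003074, on chromosome 2R from 8910900 to 8914069, minus strand), which converts glucose-6-phosphate to fructose-6-phosphate, had 31.4 FPKM at 40 h against 31.5 FPKM at 21 h APF, the smallest difference of the 10 genes.

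Phosphofructokinase catalyses the committed and most strongly regulated step. Pfk (FBgn0003071, on chromosome 2R from 10109740 to 10117457, plus strand) had the lowest FPKM of the members, with 10.2 FPKM at 40 h against 9.51 FPKM at 21 h APF. Both kinases that open the pathway were therefore at the bottom of the order, and of the 10 members only Hex-A and Pfk were below the median of all 9442 genes, which was 18.1 FPKM at 40 h against 17.3 FPKM at 21 h APF.

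Aldolase splits fructose-1,6-bisphosphate into a pair of triose phosphates. Ald (FBgn0000064, on chromosome 3R from 26254069 to 26261591, minus strand) moved to position 262 at 40 h APF among the 9442 genes ordered by FPKM, against position 531 at 21 h APF. Its log2 ratio of 1.08 was above that of 87.1% of all genes. It has 10 annotated transcripts, the most of any member, and the deposited value is the sum over them, so which transcripts account for the difference was not tested. An overlap of 8.87% of its exon bases was found with the noncoding gene CR44321, which had 0.636 FPKM at 40 h against 0.575 FPKM at 21 h APF. Triose phosphate isomerase interconverts the products of aldolase, and Tpi (FBgn0086355, on chromosome 3R from 30132981 to 30134599, minus strand) had 79.6 FPKM at 40 h against 69.2 FPKM at 21 h APF. The level of Ald was 3.85 times that of Tpi at 40 h and 2.10 times at 21 h APF.

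The payoff phase opens with glyceraldehyde-3-phosphate dehydrogenase, the step that makes NADH, and the fly has a pair of genes for it on different chromosomes. Gapdh1 (FBgn0001091, on chromosome 2R from 7791901 to 7793380, minus strand) had 65.9 FPKM at 40 h against 103 FPKM at 21 h APF. Gapdh2 (FBgn0001092, on chromosome X from 15868145 to 15869661, plus strand) had 121 FPKM at 40 h against 117 FPKM at 21 h APF. The paralogs were thus near each other at 21 h and apart at 40 h APF, and Gapdh2 made up 64.7% of their summed FPKM at 40 h, against 53.2% at 21 h. The sum itself was 187 FPKM at 40 h against 221 FPKM at 21 h APF, 1.18-fold lower at 40 h. The genes are paralogs of similar sequence, and the sources used here do not state how reads that match both were assigned, so the split between them is less certain than the sum.

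Phosphoglycerate kinase makes the first ATP of the payoff phase. Pgk (FBgn0250906, on chromosome 2L from 2746880 to 2753068, minus strand) had 66.0 FPKM at 40 h against 75.9 FPKM at 21 h APF, and Cwc25 overlaps 3.08% of its exon bases. Enolase, which makes phosphoenolpyruvate, came from Eno (FBgn0000579, on chromosome 2L from 1724768 to 1729636, minus strand), with 237 FPKM at 40 h against 188 FPKM at 21 h APF, 1.26-fold higher at 40 h. Rrp40 overlaps 9.74% of the exon bases of Eno and had 6.69 FPKM at 40 h against 11.0 FPKM at 21 h APF. Apart from Ald, Pgk and Eno, no member overlapped the exons of another gene among the 17512 listed genes that the annotation read here holds.

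Pyruvate kinase closes the pathway and makes pyruvate and ATP. PyK (FBgn0267385, on chromosome 3R from 22367536 to 22372746, plus strand) had 34.1 FPKM at 40 h against 56.6 FPKM at 21 h APF, the largest relative decrease of the members. Its position among all 9442 genes was 2914 at 40 h and 1580 at 21 h APF. The level of Ald was 8.99 times that of PyK at 40 h against 2.56 times at 21 h APF.

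FPKM is a level per transcript length, so the members can be ordered, though only roughly. The aligner used leaves reads over a splice junction unsplit, so genes with more exon blocks may lose more reads. Pfk has 14 exon blocks and Ald 8, against 1 for Hex-A and Gapdh1. The part of this in the order, in ratios between members and in shares of their sum was not tested. At 40 h APF the order was Ald, Eno, Gapdh2, Tpi, Pgk, Gapdh1, PyK, Pgi, Hex-A and Pfk, and at 21 h APF it was Eno, Ald, Gapdh2, Gapdh1, Pgk, Tpi, PyK, Pgi, Hex-A and Pfk. The 4 lowest genes kept their places. Ald and Eno changed places at the top, and Gapdh1 and Tpi changed places in the middle. Without replicate values it cannot be said which neighbours in either order differ beyond their spread; Pgk and Gapdh1, at 66.0 and 65.9 FPKM at 40 h APF, were practically level. The highest member exceeded the lowest 30.2 times at 40 h and 19.8 times at 21 h APF.

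Summed over the 10 members, glycolytic transcripts came to 965 FPKM at 40 h against 814 FPKM at 21 h APF, which was 0.172% and 0.146% of the FPKM of all genes at 40 h and at 21 h. The sum was 1.19-fold higher at 40 h. Without Ald it was 658 FPKM at 40 h against 669 FPKM at 21 h APF, so among these 10 members the higher sum rested on this 1 gene. Ald alone made up 31.8% of the sum at 40 h and 17.8% at 21 h APF. The 5 members of the preparatory phase summed to 441 FPKM at 40 h against 272 FPKM at 21 h APF, of which Ald held 307 and 145 FPKM. The 5 members of the payoff phase summed to 524 FPKM at 40 h against 542 FPKM at 21 h APF. The payoff sum leaves out phosphoglycerate mutase, whose main gene Pglym78 had 56.2 FPKM at 40 h against 26.9 FPKM at 21 h APF. The direction of the payoff sum therefore holds only for this list.

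The members lie apart in the genome, with 2 genes on chromosome X, 2 on 2L, 3 on 2R and 3 on 3R. Their annotated exon bases range from 1443 for Gapdh2 to 4377 for Pfk. Gapdh1 and Hex-A have all their exon bases in a single block, while Pfk has 14 blocks.

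The rule left out phosphoglycerate mutase, the step between Pgk and Eno. Pglym78, the main gene for this enzyme, had 56.2 FPKM at 40 h against 26.9 FPKM at 21 h APF, 2.08-fold higher at 40 h and thus close to the ratio of Ald. Its paralog Pglym87 had 0.193 FPKM at 40 h and was listed at 0 at 21 h APF. With Pglym78 counted, the steps of aldolase and phosphoglycerate mutase were over 2-fold higher at 40 h APF, and pyruvate kinase, which has no other gene with a name in the annotation used here, was the step with the largest decrease. The second aldolase gene, CG5432 (Ald2), was listed at 0 at 40 h and had 0.0518 FPKM at 21 h APF.

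The summed FPKM of the hexokinase genes was less concentrated in Hex-A at 40 h than at 21 h APF. Hex-t1 had 2.89 FPKM at 40 h against 0.267 FPKM at 21 h, Hex-t2 had 4.78 FPKM at 40 h against 0.0738 FPKM at 21 h, and Hex-C, known as the fat body form, had 0.391 FPKM at 40 h against 0.439 FPKM at 21 h APF. The summed level of the 4 hexokinase genes was 20.7 FPKM at 40 h against 17.9 FPKM at 21 h APF. Of this sum, Hex-t1 and Hex-t2 held 37.0% at 40 h against 1.91% at 21 h, and Hex-A held 61.1% at 40 h against 95.6% at 21 h APF. Hex-t1 and Hex-t2 are named for the testis and lie side by side on chromosome 3R, from 26449079 to 26450585 and from 26450671 to 26452327. The locus of tx ends 87 bases before Hex-t1, and tx had 53.3 FPKM at 40 h against 4.38 FPKM at 21 h APF, 11.9-fold higher at 40 h with 0.1 FPKM added. On the other side CG5447, which begins 206 bases after Hex-t2, had 63.1 FPKM at 40 h against 50.0 FPKM at 21 h APF. The part of these neighbours in the reads of Hex-t1 and Hex-t2, and so in their share of the hexokinase sum, was not tested.

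**Figure D3:**
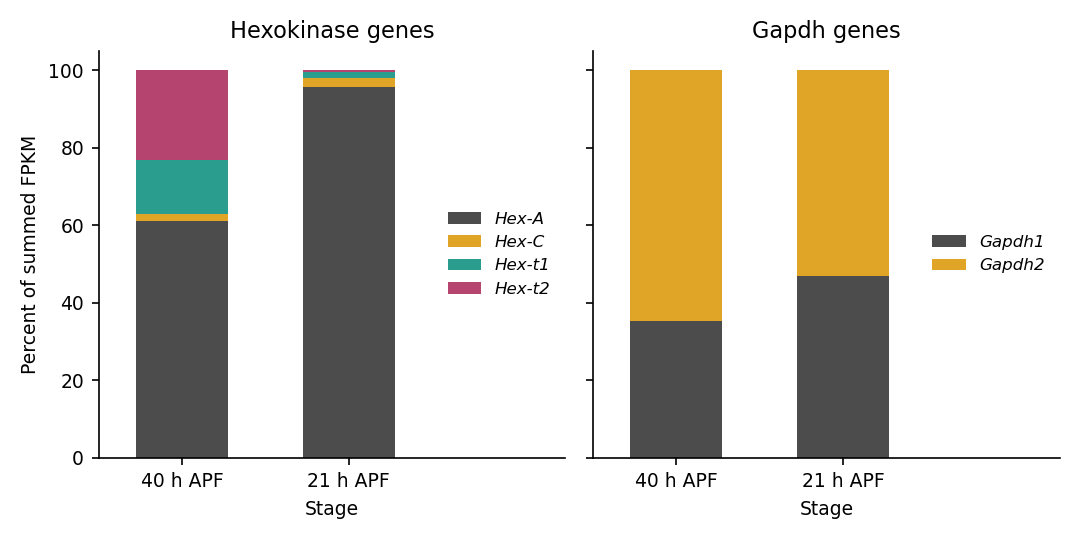
Share of the summed FPKM (y axis, percent) held by each gene at 40 h APF (left bar) and 21 h APF (right bar), for the 4 hexokinase genes (left panel) and for Gapdh1 and Gapdh2 (right panel). Hex-A holds 61.1% at 40 h against 95.6% at 21 h, and Gapdh2 holds 64.7% at 40 h against 53.2% at 21 h.

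The list of further glycolytic genes also held 8 genes that are named only by a CG number in the annotation used here and to which no role is given. CG7059 had 10.2 FPKM at 40 h against 1.65 FPKM at 21 h APF. It shares 9.69% of its exon bases with CG13857, which was also higher at 40 h, and the part of CG13857 in its value was not tested. The other 7 (CG9010, CG9961, CG7069, CG2964, CG7362, CG11249 and CG12229) stayed under 1 FPKM at both stages, the highest value being 0.740 FPKM for CG12229 at 40 h APF.

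Pyruvate and NADH leave glycolysis through lactate dehydrogenase, the glycerol-3-phosphate shuttle or the mitochondria. Of 10 genes listed for these fates, 4 were at least 1.5-fold higher at 40 h APF and none was lower. Of all 9442 genes, 21.8% were higher and 17.5% lower. These shares stand beside the counts of every list below, and no list was tested against them. ImpL3 (Ldh), the lactate dehydrogenase gene and 1 of the 4 counted as higher, had 5.36 FPKM at 40 h against 0.631 FPKM at 21 h APF. It was 7.47-fold higher at 40 h with 0.1 FPKM added, and still low beside PyK. Because ImpL3 passed the minimum mean of 1 FPKM only through its value at 40 h APF, its place in the count is not independent of its direction. Gpo-1, the mitochondrial enzyme of the shuttle, had 23.9 FPKM at 40 h against 3.86 FPKM at 21 h, while Gpdh, its cytosolic partner, had 11.2 FPKM at 40 h against 14.7 FPKM at 21 h APF and overlaps another gene over 22.1% of its exon bases. Mpc1, a subunit of the carrier that brings pyruvate into mitochondria, had 20.7 FPKM at 40 h against 7.46 FPKM at 21 h APF.

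The pyruvate dehydrogenase complex brings pyruvate into the TCA cycle as acetyl-CoA. Its E1 subunit genes had 60.7 FPKM at 40 h against 54.4 FPKM at 21 h for l(1)G0334 (Pdha), and 93.3 FPKM at 40 h against 68.9 FPKM at 21 h APF for CG11876 (Pdhb). The gene muc, for its E2 subunit, had 57.3 FPKM at 40 h against 38.7 FPKM at 21 h, and CG7430 had 78.8 FPKM at 40 h against 62.7 FPKM at 21 h APF. Pdk, the kinase that inhibits the complex, was just past the line, with 25.8 FPKM at 40 h against 17.1 FPKM at 21 h APF, and Pdp, the opposing phosphatase, had 16.7 FPKM at 40 h against 18.9 FPKM at 21 h APF.

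Beyond pyruvate, 6 of 16 genes of the TCA cycle were at least 1.5-fold higher at 40 h APF and none was lower. The shares over all genes were 21.8% higher and 17.5% lower. In the TCA cycle the median log2 ratio was 0.50, against 0.019 for the glycolytic members. The largest ratios were those of kdn (citrate synthase), with 91.0 FPKM at 40 h against 44.9 FPKM at 21 h, Mdh2 (malate dehydrogenase), with 176 FPKM at 40 h against 96.1 FPKM at 21 h, and CG5028 (Idh3g, a subunit of isocitrate dehydrogenase), with 70.6 FPKM at 40 h against 39.3 FPKM at 21 h APF. Of 5 genes listed for gluconeogenesis, Pepck1 was not analysed here, and 3 of the other 4 were higher. CG10924 (Pepck2, a phosphoenolpyruvate carboxykinase) had 75.4 FPKM at 40 h against 7.69 FPKM at 21 h, PCB (pyruvate carboxylase) had 27.2 FPKM at 40 h against 8.25 FPKM at 21 h, and G6P (glucose-6-phosphatase) had 14.6 FPKM at 40 h against 8.91 FPKM at 21 h APF. The fourth gene, fbp (fructose-1,6-bisphosphatase), which opposes Pfk, had 57.7 FPKM at 40 h against 76.5 FPKM at 21 h APF. Whether these lists differ from the glycolytic members was not tested, since the values have no replicate spread.

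**Figure D4:**
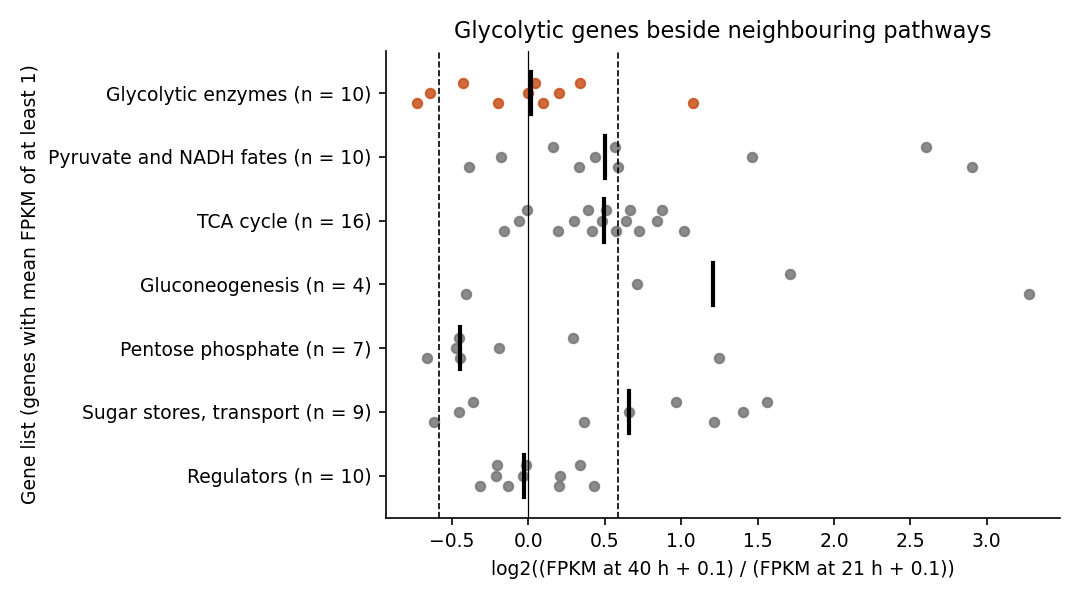
The log2 ratio of 40 h over 21 h APF, with 0.1 FPKM added to both (x axis), of each gene with a mean of at least 1 FPKM in the glycolytic list (orange) and in 6 neighbouring lists (grey, y axis); black bars are medians and dashed lines mark 1.5-fold. The glycolytic median is 0.019, that of the TCA cycle 0.50 and that of the pentose phosphate pathway -0.45.

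The pentose phosphate pathway, which branches off after hexokinase and makes NADPH and ribose, had 1 of 7 genes higher, 1 lower and a median log2 ratio of -0.45. Zw (glucose-6-phosphate dehydrogenase, its first enzyme) had 11.2 FPKM at 40 h against 4.68 FPKM at 21 h, and other genes overlap 16.4% of its exon bases. CG8036, for which the RefSeq gene table gives the synonym Transk, had 205 FPKM at 40 h against 326 FPKM at 21 h, and Rpi (ribose-5-phosphate isomerase) had 24.4 FPKM at 40 h against 33.9 FPKM at 21 h APF, with an overlap of 16.6% of its exon bases.

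Among the genes of sugar stores and transport, 5 of 9 were higher and 1 was lower at 40 h APF, beside 21.8% and 17.5% of all genes. GlyP (glycogen phosphorylase) had 40.7 FPKM at 40 h against 13.7 FPKM at 21 h, Glut1 (a glucose transporter) had 90.6 FPKM at 40 h against 34.2 FPKM at 21 h, and CG9485 had 3.41 FPKM at 40 h against 1.41 FPKM at 21 h APF, and another gene overlaps 30.2% of its exon bases. None of the 10 regulators passed 1.5-fold in either direction. Those that differed most were Hph (the prolyl hydroxylase that senses oxygen), with 33.6 FPKM at 40 h against 24.9 FPKM at 21 h, Myc, with 29.3 FPKM at 40 h against 23.1 FPKM at 21 h, and sima (the HIF-alpha gene), with 34.6 FPKM at 40 h against 43.1 FPKM at 21 h APF. Other genes overlap 61.2% of the exon bases of Myc and, among the other regulators listed, 52.2% of those of ERR and 42.0% of those of Vhl.

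Whole eyes hold several cell types, and in such bulk samples fewer cells of a type and less RNA per cell cannot be told apart. Of 10 eye markers tested, none was at least 1.5-fold higher and 4 were lower at 40 h APF. The list summed to 606 FPKM at 40 h against 982 FPKM at 21 h. The most abundant were chp, with 164 FPKM at 40 h against 370 FPKM at 21 h, and gl, with 132 FPKM against 235 FPKM. The 2 tested markers with the higher value at 40 h were elav (89.6 against 84.9 FPKM) and Pph13 (36.4 against 28.3 FPKM). The marker ninaE was listed at 0 at 40 h and had 0.0694 FPKM at 21 h APF. Of 8 glial markers, 3 were higher and 1 was lower, and they summed to 463 FPKM at 40 h against 471 FPKM at 21 h APF, led by nrv2 (178 FPKM at 40 h against 145 FPKM at 21 h) and loco (62.2 FPKM at 40 h against 124 FPKM at 21 h). Muscle markers, of which 5 of 12 were tested, 2 higher and 2 lower, summed to 51.8 FPKM at 40 h against 70.6 FPKM at 21 h, led by sls (21.7 FPKM at 40 h against 44.5 FPKM at 21 h) and Act87E (12.7 FPKM at 40 h against 7.76 FPKM at 21 h). The other 7 muscle markers, among them Mhc, up, wupA, Mlc1, Tm2 and Prm, had a mean under 1 FPKM. Of these, 6 had the higher value at 40 h APF, by 3.84-fold to 10.2-fold, and the highest was up, with 1.72 FPKM at 40 h against 0.0778 FPKM at 21 h APF. Act88F, a tested muscle marker counted as higher, passed the minimum mean only through 40 h, with 2.51 FPKM against 0.714 FPKM at 21 h APF.

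Of 8 hemocyte markers, 3 were tested and 2 were higher, and they summed to 154 FPKM at 40 h against 42.4 FPKM at 21 h APF. This sum was led by Col4a1 (57.6 FPKM at 40 h against 7.70 FPKM at 21 h) and Pxn (53.4 FPKM at 40 h against 1.92 FPKM at 21 h), matrix genes that other cells can also express, while He was listed at 0 at both stages and 5 of the 8, He included, were under 1 FPKM. Fat body markers had none of 5 tested genes higher and 2 lower and summed to 48.6 FPKM at 40 h against 70.1 FPKM at 21 h, with Lsp2, of whose exon bases CR11538 overlaps 84.6%, at 14.5 FPKM at 40 h against 28.5 FPKM at 21 h and Fbp2 at 16.3 FPKM at 40 h against 19.9 FPKM at 21 h. Of 4 trachea markers tested, 2 were higher and 1 was lower, and the list summed to 184 FPKM at 40 h against 173 FPKM at 21 h. Gasp had 73.9 FPKM at 40 h against 48.2 FPKM at 21 h, and verm had 36.3 FPKM at 40 h against 82.5 FPKM at 21 h APF. Cad96Ca, which the paper lists among cadherins that changed in the eye, had 57.9 FPKM at 40 h against 25.1 FPKM at 21 h. The other 2 markers, trh and btl, were under 1 FPKM at both stages. At 40 h against 21 h APF, trh had 0.157 against 0.360 FPKM and btl 0.184 against 0.519 FPKM. The part of any of these cell types in the values of Ald, Gapdh1 and PyK was not tested.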

How the data were processed

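RNA sequencing was performed on pooled eyes of Canton S pupae, with 3 replicates per stage. By the study's methods, paired-end reads were aligned to BDGP6 with bowtie2, an aligner that leaves reads over a splice junction unsplit, using the Ensembl release 93 annotation, and Cuffdiff gave FPKM with geometric normalization and bias correction. Tool versions are not given in the sources used here. The authors deposited 1 FPKM value per gene and stage, pooled over replicates, together with a fold change, a test score, a p-value, a q-value and a mark of significance of their own comparison, which were not used. The deposited values carry no depth, so no counting interval or floor is given.

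Ratios are log2((FPKM at 40 h + 0.1)/(FPKM at 21 h + 0.1)), so that changes of low genes are understated. Genes with a mean of at least 1 FPKM over both stages were compared, and a difference of at least 1.5-fold was counted. With 1 pooled value per stage no test across replicates was made. Positions and shared exon bases, read without regard to strand, were read from Ensembl release 115, also on BDGP6, which holds 17512 of the identifiers; those of tx, Hex-t1, Hex-t2 and CG5447 are the authors' loci. No sequences were analysed here. Named were all members, all genes of the lists of further glycolytic genes and of pyruvate and NADH fates, the 3 genes with the largest absolute ratio in each other pathway list and the 2 most abundant of each marker list; genes named beyond this, with fbp, tx, CG5447, ninaE and He among them, were chosen after their values were seen. The members and lists were chosen with earlier results of these data known. The tools were Python 3.11.15, numpy 2.4.6, pandas 2.3.3 and matplotlib 3.10.9.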

Additional observations from a re-analysis of the deposited data

How the results depend on the processing

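The alternatives were pseudocounts of 1 FPKM and of none, no filter and a minimum mean of 10 FPKM, ratios centred on their median, FPKM rescaled to the same sum, a 2-fold threshold, and leaving out genes that share exon bases. A value was taken as unmoved when it shifted by less than 1.1-fold. Of 76 values for single members, 74 kept their call and moved by less than this, and those of Gapdh1 and PyK at a 2-fold threshold lost the call. This tally says little about how firm the ratios are. The filters, the threshold and the leaving out of genes cannot change the ratio of a member that stays in. Centring and rescaling shift all members by nearly the same amount. At that threshold 0 members were lower at 40 h APF. With genes that share exon bases left out, 0 members were higher, because Ald, 8.87% of whose exon bases are shared, is then not counted. The median log2 ratio of the members lay between -0.0048 and 0.033. The log2 ratio of Pgi lay between -0.017 and 0.0096 and so changed sign. The median log2 ratio of the list of further glycolytic genes depended most on the settings. It was 2.79 over the 4 genes tested, 0.14 without a filter and 3.92 without shared exon bases, when only Hex-t1 and Hex-t2 remain. Both passed the filter only through their values at 40 h APF, having 0.267 and 0.0738 FPKM at 21 h. A high median of so few genes is therefore not read as a result. No paired analysis was possible because the values are pooled over replicates, and for the same reason no replicate could be left out.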

Other observations

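The 8 glial markers did not share a direction. The gene alrm had 23.2 FPKM at 40 h against 1.89 FPKM at 21 h, Eaat1 had 22.3 FPKM at 40 h against 5.30 FPKM at 21 h, and Gs2 had 11.4 FPKM at 40 h against 3.44 FPKM at 21 h APF. Beside loco and nrv2, given above, Gli had 68.6 FPKM at 40 h against 96.0 FPKM at 21 h, moody had 56.6 FPKM at 40 h against 55.6 FPKM at 21 h, and repo had 40.4 FPKM at 40 h against 40.5 FPKM at 21 h APF. CG7059 shares its locus in the table and 9.69% of its exon bases with CG13857, which had 19.6 FPKM at 40 h against 0.959 FPKM at 21 h APF. CG13857 was picked after its values were seen.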
